A study of Homo sapiens with 6 samples.

Results

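The kinesin genes were described across 6 RNA sequencing libraries of CAL-27, an established line of squamous carcinoma cells from a human tongue. They were taken as all genes whose symbol begins with KIF or KIFC followed by a digit, which gave 41 genes of the 16809 in the table. By general knowledge of their roles, 13 were placed among mitotic kinesins, 15 among cargo transport kinesins and 13 among other kinesins. CENPE, a kinesin of the kinetochore, carries another kind of symbol and was counted with the partner genes. A mean of at least 1 TPM (a length-normalised measure of relative transcript abundance within a library) over the 6 libraries was required for testing, and 30 of the 41 genes reached it: 12 mitotic, 11 cargo transport and 7 other kinesins.

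Kinesins are motor proteins that use ATP to walk along microtubules or to take their ends apart. The mitotic members build the bipolar spindle, move chromosomes and position the cleavage furrow, and their transcripts accumulate in the G2 phase and mitosis of dividing cells. The cargo transport members carry mitochondria, endosomes, lysosomes and ciliary cargo, mostly towards the cell periphery, and are expressed in dividing and resting cells alike.

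The control group (CON in the labels) held 3 libraries of cells labelled as normal controls, with no time listed for them. The second group (ESCU in the labels) held 3 libraries of cells given elesclomol-Cu (ES-Cu), a copper ionophore mixed in equal parts with copper, for 24 h. The comparison addressed the transcriptome during cuproptosis, a copper-dependent cell death. All libraries came from one cell line, the dose was not given in the sources used here, and the labels do not say whether replicates were separate cultures. The p-values therefore reflect variation among these libraries, part or all of which may be technical.

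The number of reads behind each library is unknown, since TPM keeps no totals, and no counting error can be given. Between 14959 and 15051 genes lay above 0 in each library. Of 11927 tested genes, 70.0% were called lower and 13.6% higher in ES-Cu at an adjusted p under 0.05 (limma-trend on log2(TPM + 1), Benjamini-Hochberg), and the median gene stood at a log2 fold change of -0.50. After median-of-ratios scaling that median was 0.0037, and after quantile normalization it was -0.074. A gene is therefore said to have risen or fallen only where it was called with one sign on the deposited scale and after both other scalings. By that rule 31.2% of tested genes fell and 13.5% rose. Among the 30 tested kinesins 15 fell and 3 rose. Fold changes below are those of the deposited log2(TPM + 1) values unless a scaling is named, and this scale understates the change of low genes. KRT5, a keratin of squamous epithelium, stood between 830 and 878 TPM in every library. Of 10 squamous epithelial markers 3 fell (TP63, CDH3 and CDH1) and 2 rose (SFN and KRT6A) in all 3 scalings (6 lower and 2 higher as deposited). The summed level of the 10 was 2658 to 2784 TPM in control and 2980 to 3037 TPM in ES-Cu. Within that sum SFN went from 640 to 1233 TPM on average, so the higher sum does not describe most of these markers. Of 12 stromal, endothelial and blood cell markers 9 were listed, and their summed level was 76.7 to 82.2 TPM in control and 54.3 to 59.6 TPM in ES-Cu, most of it from CD68 (48.7 to 66.1 TPM), with falls in CDH5 (7.15 to 1.46 TPM on average) and COL1A1 (8.36 to 3.62 TPM). COL3A1, PECAM1 and PTPRC were each at or below 0.15 TPM. Their part in the results below was not tested.

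The genes classed as mitotic kinesins fell, and that class was set with earlier results of these data known. All 12 tested members fell in all 3 scalings, beside 31.2% of all tested genes. On the deposited scale 10 of the 12 were at least 2-fold lower, beside 18.2% of tested genes. The 12 had a median log2 fold change of -1.18 on that scale, and the range was -2.63 to -0.87. The 2-fold count depended on the scale. With median-of-ratios scaling KIF20A alone stayed at least 2-fold lower (-2.10), and KIF11 was next at -0.89. With quantile normalization only KIF20A (-2.22), KIF11 (-1.06) and KIFC1 (-1.03) did. In none of the 12 did the control and ES-Cu libraries overlap, whereas ES-Cu lay below control without overlap for 70.3% of tested genes. KIF2A, which acts at spindle poles, was placed among the other kinesins and was not among the genes that fell. Its log2 fold change was -0.17 as deposited, 0.36 after median-of-ratios scaling and 0.23 after quantile normalization. The RNA came from bulk cultures, so fewer cells in mitosis and less of each transcript per cell cannot be told apart.

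KIF20A, also called MKLP2, brings the chromosomal passenger complex to the central spindle for cytokinesis. It stood at 72.3, 73.0 and 72.8 TPM in control, against 11.7, 10.4 and 10.7 TPM after ES-Cu. The groups lay far apart, with ES-Cu at 15.03% of the control mean (log2 fold change -2.63 ± 0.060 SE, adjusted p = 4.13e-11, limma-trend). Among the 11927 tested genes, 6 had a lower log2 fold change than KIF20A as deposited, and 10 and 6 had one after the median-of-ratios and quantile scalings. After median-of-ratios scaling its own fold change was -2.10, and after quantile normalization it was -2.22.

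The promoters of the mitotic members are shown because these genes moved together. Transcription of many G2 and mitosis genes is known to depend on the cell cycle homology region (CHR), read by the MuvB complexes, and on CCAAT boxes bound by NF-Y. RefSeq windows on GRCh38.p14, from 250 bases before to 50 bases after a start site, were found for 33 of the 41 kinesin genes: all 13 mitotic, 11 of 15 cargo transport and 9 of 13 other kinesins. KIF5A, KIF13B, KIFC2, KIFC3, KIF19, KIF21B, KIF26B and KIF27 had no entry. The stretches below run 5′ to 3′ on the strand of the gene over the 160 bases before the start site, and capitals mark the CHR letters TTTGAA or TTCGAA and the letters CCAAT, each read on either strand. They lie at chr5:138178952-138179111 (+ strand), chr10:92592970-92593129 (+ strand), chrX:70289944-70290103 (+ strand), chr16:29790591-29790750 (+ strand), chr15:69414189-69414348 (+ strand) and chr11:28108157-28108316 (- strand). For KIF22, which has 2 windows, the upstream one is shown.
KIF20A: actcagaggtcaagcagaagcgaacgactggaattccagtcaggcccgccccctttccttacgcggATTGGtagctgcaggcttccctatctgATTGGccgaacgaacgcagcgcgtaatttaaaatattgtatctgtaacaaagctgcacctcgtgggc
KIF11: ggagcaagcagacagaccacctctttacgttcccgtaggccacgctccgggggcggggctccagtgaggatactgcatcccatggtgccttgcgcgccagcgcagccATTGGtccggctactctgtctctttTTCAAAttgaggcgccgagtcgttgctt
KIF4A: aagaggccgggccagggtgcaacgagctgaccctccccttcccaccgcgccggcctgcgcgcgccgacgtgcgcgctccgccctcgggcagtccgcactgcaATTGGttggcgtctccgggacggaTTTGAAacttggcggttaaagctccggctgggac
KIF22: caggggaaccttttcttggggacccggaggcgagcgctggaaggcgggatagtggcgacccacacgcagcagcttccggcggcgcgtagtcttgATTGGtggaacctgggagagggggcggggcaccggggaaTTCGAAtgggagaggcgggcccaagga
KIF23: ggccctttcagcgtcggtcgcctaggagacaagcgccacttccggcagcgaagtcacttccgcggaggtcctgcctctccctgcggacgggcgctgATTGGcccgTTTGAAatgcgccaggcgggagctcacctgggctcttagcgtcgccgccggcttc
KIF18A: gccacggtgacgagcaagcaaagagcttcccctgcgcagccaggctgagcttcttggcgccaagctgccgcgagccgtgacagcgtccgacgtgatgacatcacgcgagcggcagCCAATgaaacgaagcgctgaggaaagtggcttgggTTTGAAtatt
The corresponding stretches of KIF5B, at chr10:32056426-32056585 (- strand), and of the first of 3 starts of KIF1B, at chr1:10210410-10210569 (+ strand), are given for comparison, since these were the 2 tested cargo transport genes that were called higher in ES-Cu.
KIF5B: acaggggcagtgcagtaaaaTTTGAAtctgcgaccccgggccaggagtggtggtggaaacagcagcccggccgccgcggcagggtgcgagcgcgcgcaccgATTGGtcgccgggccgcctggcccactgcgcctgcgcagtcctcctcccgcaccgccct
KIF1B: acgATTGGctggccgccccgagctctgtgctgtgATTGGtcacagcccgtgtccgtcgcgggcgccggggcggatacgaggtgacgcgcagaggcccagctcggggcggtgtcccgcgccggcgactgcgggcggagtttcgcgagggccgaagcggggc

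TTTGAA was found in a window of 10 of 13 mitotic, 1 of 11 cargo transport (KIF5B) and 0 of 9 other kinesins, beside 18.2% of the 27305 genes with a window. Neither these 27305 genes nor the kinesins counted, KIF4B among them, were limited to those tested here. Shares among tested genes were not computed. The variant TTCGAA was found in 1 of 13 mitotic (KIF22), 0 of 11 cargo transport and 1 of 9 other kinesins (KIF24), beside 1.82% of all genes. CCAAT occurred in 11 of 13 mitotic, 4 of 11 cargo transport and 3 of 9 other kinesins, beside 39.7% of all genes. The longer GATTGG, whose last bases overlap a reversed CCAAT, occurred in 6 of 13, 2 of 11 and 1 of 9, beside 17.9%. Either CHR form together with CCAAT stood in a window of 10 of 13 mitotic, 1 of 11 cargo transport (KIF5B) and 1 of 9 other kinesins (KIF24), beside 7.85% of all genes. KIF20A, with the largest fall, had 2 CCAAT matches and neither CHR form, and KIF2C had no match to any of these letters. These are matches of letters in windows around annotated starts, and no binding was measured.

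**Figure D1:**
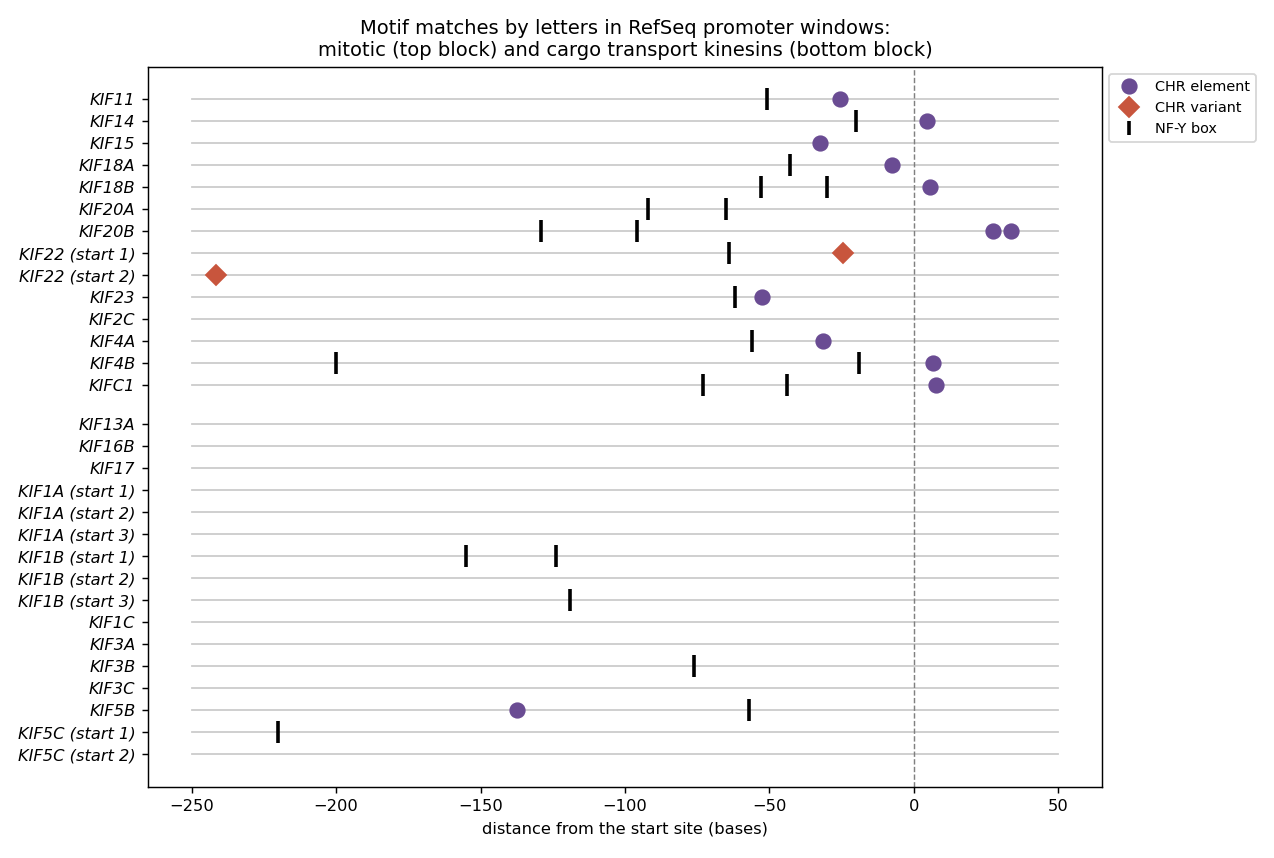
Matches in RefSeq promoter windows of mitotic kinesins (top block) and cargo transport kinesins (bottom block), by distance from the annotated start site in bases. Circles mark the CHR letters TTTGAA, diamonds the variant TTCGAA and bars CCAAT, each on either strand. The mitotic windows carry CHR matches in 11 of 13 genes, most of them near the start site, and the cargo transport windows in 1 of 11.

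KIF11, KIF15 and KIFC1, motors of spindle assembly, fell by similar amounts. KIF11, or Eg5, slides antiparallel microtubules apart and stood at 61.6, 65.8 and 61.7 TPM in control and at 22.5, 22.1 and 23.8 TPM in ES-Cu. The log2 fold change of KIF11 was -1.43 ± 0.055 SE (adjusted p = 3.14e-09, limma-trend), which placed 592 tested genes below it. KIF15, a motor that can take over part of the work of KIF11, was lower throughout at 11.97, 12.7 and 11.5 TPM in control and 4.63, 4.17 and 4.79 TPM in ES-Cu. Ratios between relatives within a library are given below as descriptions with no test, since these pairs were picked after their values were known. The ratio of KIF11 to KIF15 was 5.23 ± 0.125 (SD, n = 3) in control and 5.04 ± 0.226 (SD, n = 3) in ES-Cu, and the libraries of the groups overlapped. KIFC1, or HSET, a minus-end motor that bundles spindle microtubules and clusters extra centrosomes, was the most abundant kinesin of the control libraries at 120.5, 115.5 and 118.1 TPM, and stood at 45.9, 45.8 and 49.9 TPM after treatment (log2 fold change -1.31 ± 0.049 SE). KIFC1 made up 17.3% ± 0.488 of the summed mitotic kinesin TPM in control and 17.2% ± 0.640 in ES-Cu (SD, n = 3 each), whereas the share of KIF20A went from 10.7% ± 0.0983 to 3.99% ± 0.216.

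Motors at kinetochores and chromosome arms fell as well. KIF2C, or MCAK, which takes apart microtubules at kinetochores to correct wrong attachments, stood at 109.6, 109.7 and 107.3 TPM in control and at 48.8, 47.0 and 52.3 TPM in ES-Cu. KIF22, or Kid, a chromokinesin that pushes chromosome arms towards the spindle equator, stood at 73.6, 74.8 and 76.6 TPM in control and 29.8, 29.3 and 27.8 TPM in ES-Cu. Both groups of libraries were tight, and neither gene had an ES-Cu library near a control library. KIF18A, which dampens the oscillation of chromosomes, had a log2 fold change of -0.998, and its relative KIF18B, which acts on astral microtubules, one of -1.23. Their ratio within a library was 1.49 ± 0.112 in control and 1.82 ± 0.406 in ES-Cu (SD, n = 3 each) and overlapped between groups.

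Among the motors of the central spindle and cytokinesis, KIF20A stood apart from the rest. KIF23, or MKLP1, the motor of the centralspindlin complex, was at 69.9, 70.9 and 70.3 TPM in control and at 34.7, 31.0 and 33.3 TPM in ES-Cu. The control level of KIF20A was close to that of KIF23, with a ratio of 1.03 ± 0.00283, and in ES-Cu the ratio was 0.331 ± 0.00917 (SD, n = 3 each). The groups did not overlap in this ratio, which multiplying a whole library by a factor cannot change. Against KIF20B, its closest relative among the members, the ratio of KIF20A went from 1.89 ± 0.0941 to 0.601 ± 0.0468.

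KIF4A, a chromokinesin that works with PRC1 to set the length of the central spindle, had a log2 fold change of -1.03, KIF20B one of -1.04 and KIF14, which binds citron kinase at the midbody, one of -0.87. KIF14 was the mitotic member with the smallest fall and stood at 22.1, 22.1 and 19.8 TPM in control and 12.5, 10.2 and 10.9 TPM in ES-Cu. KIF4B, an intronless near-copy of KIF4A, was at 0.57 to 0.95 TPM in control and 0.30 to 0.35 TPM in ES-Cu, below the minimum for testing. Short reads can be split between these copies, and the values of both are uncertain for that reason.

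The cargo transport kinesins were mixed. Of 11 tested members, 9 were called lower and 2 higher on the deposited scale, beside 70.0% and 13.6% of all tested genes, and in all 3 scalings 2 fell and 2 rose, beside 31.2% and 13.5%. The libraries of the groups did not overlap in any of the 11, with ES-Cu below for 9 and above for 2, beside 70.3% and 14.0% of tested genes. After median-of-ratios scaling 4 were called lower and 3 higher, beside 35.8% and 38.0%, and after quantile normalization 3 and 2, beside 39.9% and 31.4%. On the log2(TPM + 1) scale 0 were at least 2-fold higher, beside 2.69%, and 0 at least 2-fold lower, beside 18.2%, although in plain TPM the control means of KIF16B and KIFC2 were 2.06 and 2.29 times the ES-Cu means. The median log2 fold change was -0.49, near the median gene at -0.50, and turned to 0.053 after median-of-ratios scaling.

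**Figure D2:**
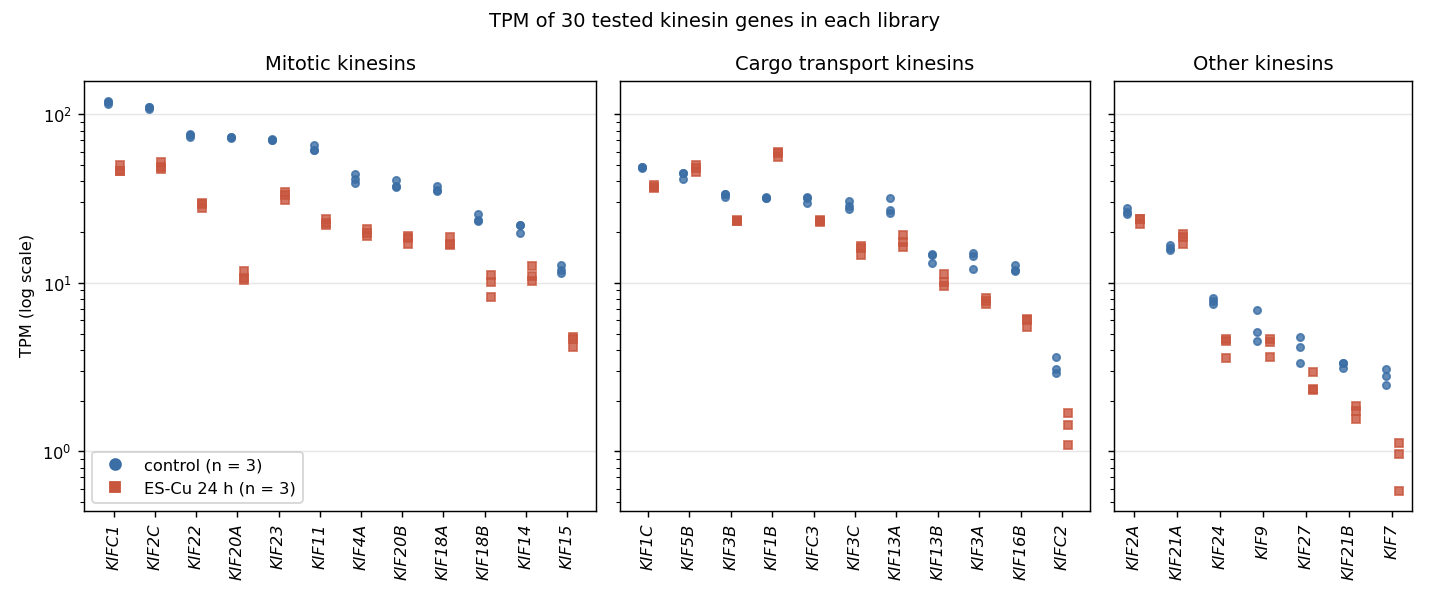
TPM on a log axis of the 30 tested kinesin genes in each of 3 control (circles) and 3 ES-Cu (squares) libraries, by class and ordered by control mean. The mitotic members are lower in every ES-Cu library, with KIF20A going from about 72.7 to 10.9 TPM on average, while KIF1B is higher in ES-Cu.

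KIF1B, a kinesin-3 motor whose isoforms carry mitochondria and synaptic vesicle precursors, rose. It stood at 31.9, 32.5 and 32.0 TPM in control, against 59.5, 55.9 and 58.6 TPM after ES-Cu. The ES-Cu mean was 1.80 times the control mean (log2 fold change 0.83 ± 0.050 SE, adjusted p = 5.77e-08, limma-trend), and 436 of 11927 tested genes had a higher fold change. KIF1C, its relative in Golgi, integrin and mRNA transport, stood at 48.4, 47.9 and 48.8 TPM in control and 37.2, 36.5 and 38.3 TPM in ES-Cu. The order of this pair thus turned within every library, with a ratio of KIF1B to KIF1C of 0.665 ± 0.0114 in control and 1.55 ± 0.0393 in ES-Cu (SD, n = 3 each). KIF1C was called lower as deposited (-0.36), called higher after median-of-ratios scaling (0.18) and not called after quantile normalization (-0.019). KIF1A, the neuronal member of this subfamily, was at 0.67 to 0.74 TPM in control and 0.72 to 1.01 TPM in ES-Cu, and the groups overlapped.

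KIF5B, the ubiquitous heavy chain of conventional kinesin that carries mitochondria and lysosomes, was slightly higher. It stood at 44.9, 44.7 and 41.01 TPM in control and at 50.2, 48.2 and 45.4 TPM in ES-Cu, and the lowest ES-Cu library lay just above the highest control library. Its log2 fold change was 0.14 ± 0.058 SE (adjusted p = 0.0480, limma-trend), 0.68 after median-of-ratios scaling (adjusted p = 2.53e-06) and 0.48 after quantile normalization (adjusted p = 3.57e-05). On the deposited scale the call of KIF5B was lost without any one of control replicates 1, 2 and 3 and ES-Cu replicates 1 and 2, where the adjusted p from limma-trend was 0.0506, 0.0513, 0.185, 0.161 and 0.0960, and also without the mean-variance trend (0.0849) and without the low-value filter (0.0606). Its relatives KIF5A and KIF5C, which are mostly neuronal, were under 0.54 TPM and not tested. KIF5A lay between 0.11 and 0.17 TPM in control and between 0.31 and 0.53 TPM in ES-Cu, and KIF5C between 0.17 and 0.28 TPM and between 0.04 and 0.14 TPM.

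The tested kinesin-2 motors, which drive transport into cilia, lay near or below the median gene. KIF3B was at 32.1, 33.4 and 33.6 TPM in control and 23.3, 23.1 and 23.5 TPM in ES-Cu. Its partner KIF3A had a log2 fold change of -0.75. KIF3C, which pairs with KIF3A in place of KIF3B, had one of -0.83. Of the 3 genes KIF3C alone fell in all 3 scalings. The ratio of KIF3C to KIF3B was 0.871 ± 0.0485 in control and 0.677 ± 0.0396 in ES-Cu, and that of KIF3A to KIF3B 0.420 ± 0.0507 and 0.336 ± 0.0158 (SD, n = 3 each), both without overlap between groups. KIF17, a kinesin-2 motor of dendrites and cilia, was too low for testing but stood at 0.20 to 0.80 TPM in control and at or above 1.31 TPM in every ES-Cu library.

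The remaining members of this class carry endosomal and junctional cargo. KIF16B, which moves early endosomes, stood at 11.9, 11.8 and 12.7 TPM in control and at 6.08, 5.49 and 6.03 TPM in ES-Cu, and fell (log2 fold change -0.93 ± 0.083 SE, adjusted p = 1.08e-06, limma-trend). KIF13A, a motor of recycling endosomes, had a log2 fold change of -0.64 and KIF13B, which binds the scaffold protein DLG1, one of -0.43. KIFC3, a minus-end motor linked to adherens junctions, stood at -0.42, and KIFC2, a minus-end motor known from neurons, at -0.81 with levels of 2.90 to 3.65 TPM in control and 1.09 to 1.68 TPM in ES-Cu. These 4 genes were called lower on the deposited scale and not in all 3 scalings.

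**Figure D3:**
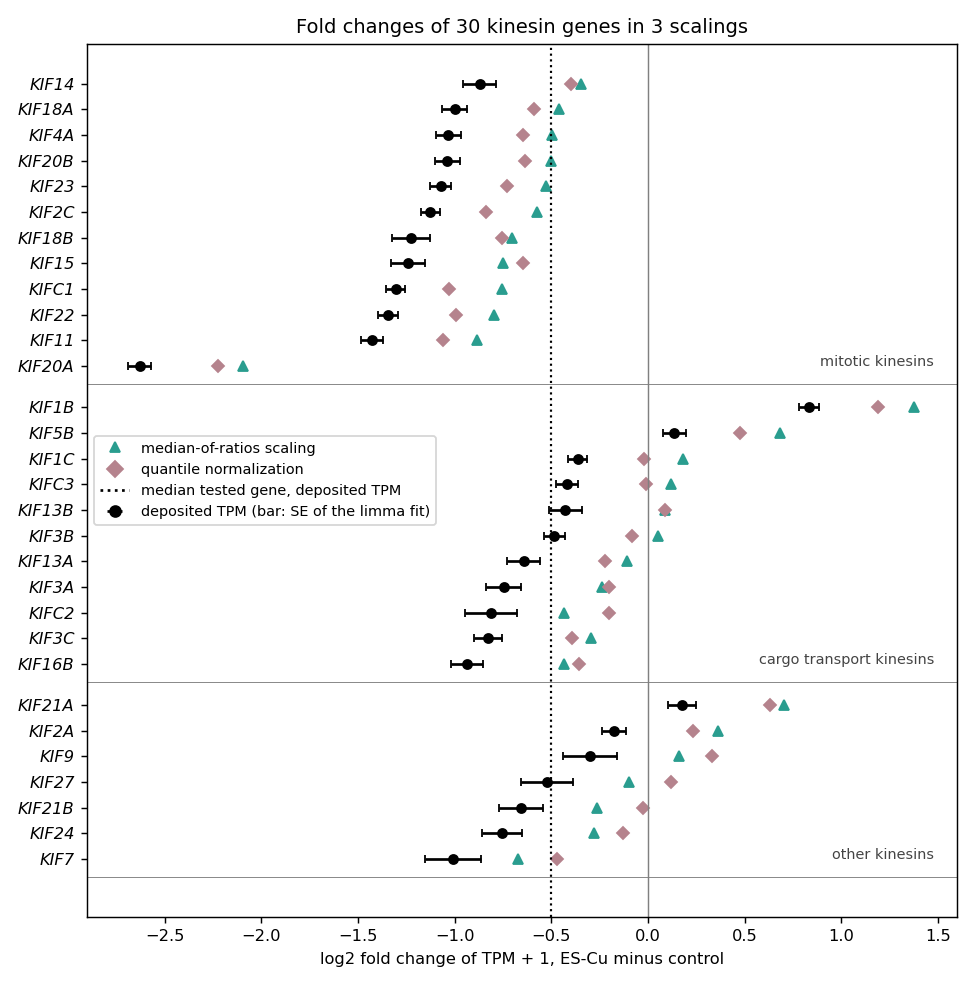
Log2 fold change (ES-Cu minus control) of the 30 tested kinesin genes on deposited TPM (circles with the SE of the limma fit), after median-of-ratios scaling (triangles) and after quantile normalization (diamonds); the dotted line is the median tested gene as deposited, at -0.50. All mitotic members lie below 0 in all 3 scalings, and the cargo transport members spread on both sides once scaled.

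The 2 classes were then set against each other within each library, where a scaling factor cancels. The mitotic sum was 681, 689 and 676 TPM in control and 276, 266 and 279 TPM in ES-Cu. The cargo transport sum was 290.3, 293 and 288 TPM in control and 258, 245 and 252 TPM in ES-Cu. The ratio of the sums was 2.35, 2.36 and 2.35 in control and 1.07, 1.09 and 1.11 in ES-Cu, so that the classes were nearly equal in abundance after treatment. On the log2 scale the ratio changed by -1.11, and by -1.04 without KIFC1 and KIF5B, the members of each class with the highest mean TPM over all 6 libraries. The mitotic share of all kinesin TPM went from 65.6% ± 0.111 to 47.1% ± 0.558, and the cargo transport share from 27.9% ± 0.0385 to 43.3% ± 0.265 (SD, n = 3 each). Within the cargo transport sum, KIF1B went from 11.1% ± 0.0697 to 23.1% ± 0.250 and KIF5B from 14.98% ± 0.650 to 19.05% ± 0.880. The near equality of the sums in ES-Cu thus includes the rise of KIF1B, and the ratio without KIF1B was not computed. No p-value is given for these sums, because the members were chosen with results known. The classes also differ in transcript length, with a median of 3970 bases for the longest coding transcript of the 12 tested mitotic genes, 6103 bases for the 11 cargo transport genes and 3385 bases for all tested genes with a value (97.5% of them), and in GC content, with medians of 44.3%, 47.6% and 48.8%. The part of length and GC content in the contrast was not tested.

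**Figure D4:**
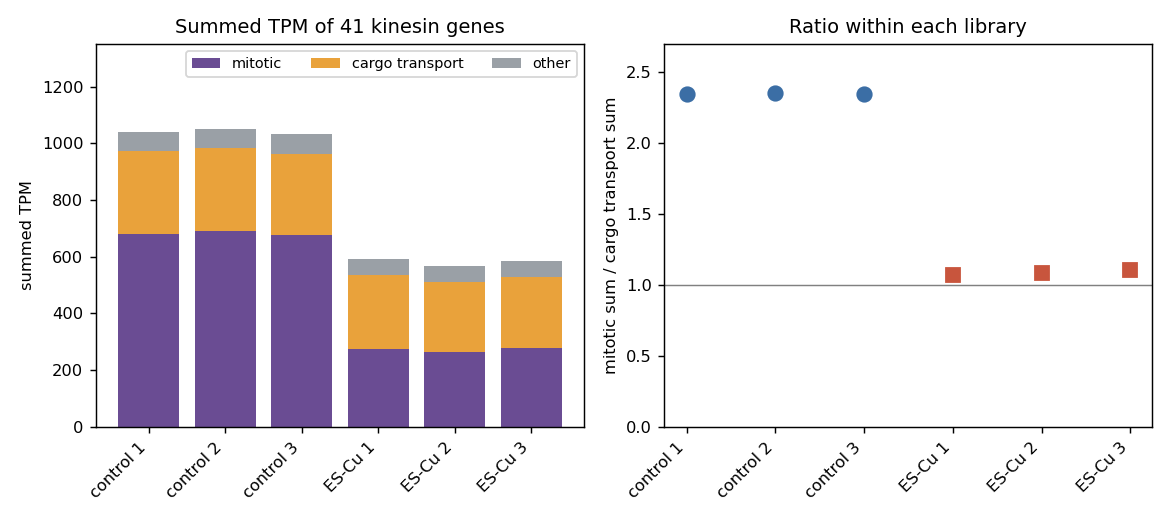
Left, summed TPM of the 41 kinesin genes in each library, stacked by class; right, the ratio of the mitotic to the cargo transport sum in the same library (circles control, squares ES-Cu, line at a ratio of 1). The mitotic sum is 676 to 689 TPM in control and 266 to 279 TPM in ES-Cu, and the ratio goes from about 2.35 to 1.09.

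The other kinesins were called lower and higher at shares near those of all tested genes. Of 7 tested members, 5 were called lower and 1 higher on the deposited scale, beside 70.0% and 13.6% of all tested genes, and 1 fell and 1 rose in all 3 scalings, beside 31.2% and 13.5%. Their median log2 fold change was -0.52, beside -0.50 for all tested genes. KIF7, which organises the tip of the primary cilium in Hedgehog signalling, fell from 2.46, 3.07 and 2.81 TPM to 0.97, 0.58 and 1.12 TPM (log2 fold change -1.01 ± 0.146 SE, adjusted p = 5.67e-05, limma-trend). KIF21A, a kinesin-4 motor that restrains microtubule growth, stood at 16.8, 15.7 and 16.0 TPM in control and 18.8, 19.4 and 16.9 TPM in ES-Cu. The groups of KIF21A were close (log2 fold change 0.17 ± 0.072 SE, adjusted p = 0.0423, limma-trend). The call as deposited was lost without any one of control replicates 2 and 3 and ES-Cu replicates 1 and 2 (limma-trend adjusted p from 0.0969 to 0.127). The call was also lost without the low-value filter (0.0546), with array weights (0.0550) and with a block for the replicate number (0.0537). After median-of-ratios scaling the fold change was 0.70 (limma-trend adjusted p = 1.31e-05). After quantile normalization it was 0.63 (limma-trend adjusted p = 2.79e-05), so KIF21A was the member of this class that rose in all 3 scalings. Its relative KIF21B was lower, at 3.12 to 3.36 TPM in control and 1.55 to 1.86 TPM in ES-Cu, and the ratio of KIF21A to KIF21B went from 4.94 ± 0.136 to 10.8 ± 0.582 without overlap (SD, n = 3 each).

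KIF2A, which takes apart microtubules at spindle poles and in neurons and belongs to the same subfamily as the mitotic KIF2C, was at 26.3, 27.9 and 25.4 TPM in control and 24.0, 24.0 and 22.2 TPM in ES-Cu. KIF2A was called lower as deposited (-0.17) and higher after both scalings. The fold change was 0.36 after median-of-ratios scaling (adjusted p = 0.000406) and 0.23 after quantile normalization (adjusted p = 0.00615, limma-trend). The call of KIF2A as deposited was lost without control replicate 2 (adjusted p = 0.0846) and without ES-Cu replicate 3 (0.0892, limma-trend). The ratio of KIF2C to KIF2A went from 4.11 ± 0.153 to 2.12 ± 0.207 without overlap (SD, n = 3 each). KIF24, which restrains cilium formation at the mother centriole, had a fold change of -0.75, and KIF27, a relative of KIF7, one of -0.52. KIF9, a motor of motile cilia, was not called (-0.30, adjusted p = 0.0674, limma-trend) and was called lower without control replicate 2 (-0.41, adjusted p = 0.0223) and with array weights (-0.34, adjusted p = 0.0443). The other 6 members of this class, KIF6, KIF12, KIF19, KIF25, KIF26A and KIF26B, were at or below 0.71 TPM in every library, and KIF12 and KIF19 were listed at 0 in all 3 ES-Cu libraries.

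Spindle and cytokinesis genes outside the symbol rule, CENPE among them, were also lower. Of 30 tested partner genes, 30 were called lower as deposited and 27 fell in all 3 scalings, beside 70.0% and 31.2% of tested genes, with a median log2 fold change of -1.08. PLK1, the mitotic kinase that phosphorylates KIF20A and binds it at the central spindle, had the largest fall of the list, from 144 ± 1.28 to 32.4 ± 0.361 TPM (SD, n = 3 each, log2 fold change -2.12), a smaller fall than that of KIF20A. CENPF (-1.78) and the cyclin gene CCNB1 (-1.67) followed. CENPE, the kinesin of kinetochores, fell from 13.5 ± 0.825 to 7.22 ± 0.378 TPM (-0.82, SD, n = 3 each). AURKB (-1.16), RACGAP1 (-1.01) and PRC1 (-0.76), which encode partners of KIF20A, KIF23 and KIF4A, fell as well. These 3 genes were picked with their values known.

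Genes of DNA replication and regulators of mitotic transcription had medians nearer to that of all tested genes (-0.50). The shares to set beside the counts of these lists are those of all tested genes, 70.0% lower and 13.6% higher as deposited and 31.2% fell and 13.5% rose in all 3 scalings. Of 21 DNA replication genes, 16 were called lower and 2 higher, and 10 fell and 2 rose in all 3 scalings, with a median of -0.68. MCM6 (-1.26), POLE2 (-1.22) and MCM3 (-1.07) were the largest falls. Of 21 regulators, 6 fell and 5 rose in all 3 scalings (14 lower and 5 higher as deposited), with a median of -0.43. E2F5 (-1.61) and RBL2 (-1.32), which encode an E2F factor and a pocket protein, fell, and CDKN1A, the gene of the cell cycle inhibitor p21, rose from 48.0 ± 1.00 to 103.5 ± 2.63 TPM (SD, n = 3 each). FOXM1, a transcription factor of G2 and mitosis genes, fell from 88.3 ± 2.19 to 50.1 ± 3.23 TPM (SD, n = 3 each, -0.81), and was picked with its values known.

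The lists of genes that work with the cargo transport kinesins are read against the same shares of all tested genes, 70.0% lower, 13.6% higher, 31.2% fell and 13.5% rose. Of 18 tested light chain and adaptor genes, 13 were called lower and 2 higher, and 4 fell and 2 rose in all 3 scalings, with a median of -0.41, and the shares lower and higher were near those of all genes. RHOT1, which encodes the mitochondrial receptor Miro1 for kinesin-1, fell from 39.2 ± 3.43 to 15.1 ± 0.342 TPM (-1.32), and FYCO1, an adaptor of late endosomes and autophagosomes, fell (-0.86). SPAG9, which encodes the scaffold JIP4, rose from 48.8 ± 0.257 to 88.0 ± 2.78 TPM (SD, n = 3 each, 0.84). Of 23 tested subunits and regulators of cytoplasmic dynein and dynactin, the minus-end motor, 5 fell and 4 rose in all 3 scalings (14 lower and 4 higher as deposited, median -0.42), with DYNLL1 (-1.47) and ACTR1B (-1.25) among those that fell and DCTN4 (0.82) among those that rose. Of 13 tested tubulin genes, which encode the track itself, 6 fell and 1 rose in all 3 scalings (11 lower and 1 higher as deposited, median -0.72). TUBA1A (-1.49), TUBG2 (-1.17) and TUBA1B (-1.03) fell. The alpha-tubulin genes are close paralogs whose reads may be shared.

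**Figure D5:**
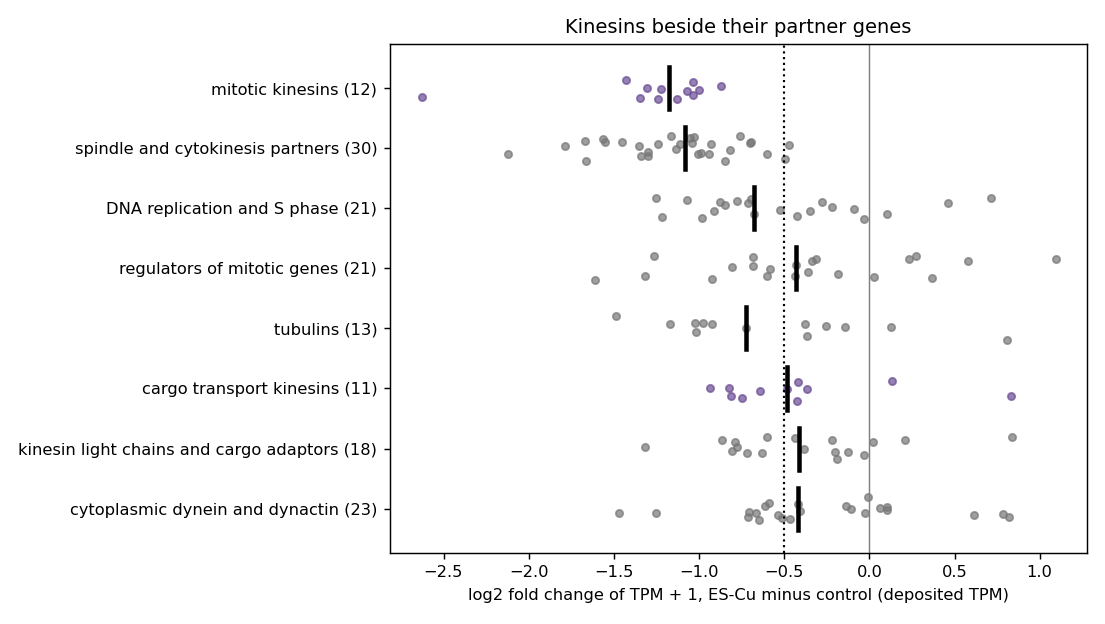
Log2 fold change (ES-Cu minus control, deposited TPM) of each tested gene in the 2 kinesin classes (coloured) and in 6 lists of genes that act with them (grey), with the number tested in brackets; thick bars are list medians, and the dotted line is the median tested gene at -0.50. The mitotic kinesins (-1.18) and the spindle and cytokinesis partners (-1.08) have the lowest medians of the 8 lists shown, and the cargo transport kinesins (-0.49) lie at the median gene.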

How the data were processed

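The libraries were made from total RNA and read on a BGISEQ-500 from one end for 50 bases, per the labels' protocols. The deposited table gives TPM made by the authors, rounded to 2 decimals, with columns that sum to the same total within rounding. HISAT, Bowtie2 and the mouse build GRCm38.p6 are named in the submitters' processing notes, although the table lists human genes, and the sources used here do not name the quantifier, its annotation or whether it used strand. Reads from a gene and an antisense partner can therefore not be told apart.

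The whole table was fitted with limma 3.58.1 in R 4.3.3 on log2(TPM + 1) (empirical Bayes with trend, two-sided, Benjamini-Hochberg over the 11927 genes averaging 1 TPM or more, threshold 0.05). The procedure was tried on simulated data in which few genes changed, equally in both directions. That trial does not cover a table where most genes were called lower. Scaling alternatives kept those genes. Ratios within a library were described without a test.

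Every kinesin gene is named. Of each companion list, up to 3 genes with the largest change, an adjusted p under 0.05 and at least 5 TPM in a group are named, and CENPE, AURKB, RACGAP1, PRC1, FOXM1 and the markers were added. Members, classes and lists were chosen with earlier results of these data known. Promoter windows are RefSeq's, and transcript lengths are from GENCODE.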

Additional observations from a re-analysis of the deposited data

How the results depend on the processing

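All 12 tested mitotic kinesins were called lower under every alternative tried, including both scalings, pseudocounts of 0.1 and 0.5, no filter, a filter of 5 TPM, no trend, array weights, the replicate block and the removal of each library, and 13 were called without a filter. Their median log2 fold change was -0.64 after median-of-ratios scaling, -0.74 after quantile normalization, -1.22 with a pseudocount of 0.1 and -1.13 without a filter, and -1.19 to -1.14 without single libraries. The 9 cargo transport kinesins called lower became 4 and 3 after the 2 scalings, and their median became 0.053 and -0.083. That median was -0.42 without a filter and -0.46 with a filter of 5 TPM. The number called higher was 1 without the trend and 1 to 2 without single libraries. Over all genes, 4266 were called lower and 4532 higher after median-of-ratios scaling, and 4756 and 3749 after quantile normalization. The log2 ratio of the mitotic to the cargo transport sum changed by -0.97 with means of log2(TPM + 1) and by -1.04 without the highest member of each list. After median-of-ratios scaling the sign turned for KIF13B (0.088), KIF1C (0.18), KIF2A (0.36), KIF3B (0.053), KIF9 (0.16) and KIFC3 (0.12), and after quantile normalization for KIF13B (0.089), KIF27 (0.12), KIF2A (0.23) and KIF9 (0.33). The cause was not tested. With the replicate block 12 mitotic and 9 cargo transport members were called lower, 8343 and 1614 genes were called lower and higher over the table, and the only kinesin call that changed was that of KIF21A (log2 fold change 0.17, adjusted p = 0.0537, limma-trend). Groups share only a replicate number in the labels, and deviations of same-numbered libraries correlated at 0.021, -0.034 and 0.011 across genes. TPM gives no depth, so no detection limit could be set for the 11 untested members.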
